A study of Mus musculus with 4 samples.

Results

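The genes described are the 9 that encode subunits of the mouse Arp2/3 complex, taken by symbol (*Actr2* for ARP2, *Actr3* for ARP3, *Arpc1a* and *Arpc1b*, *Arpc2*, *Arpc3*, *Arpc4*, *Arpc5* and *Arpc5l*). All 9 were found, of 21957 genes in the table. The Arp2/3 complex binds the side of an actin filament and starts a new filament from it as a branch. It is built of the actin-related proteins ARP2 and ARP3 and of the scaffold subunits ARPC1 to ARPC5, and it stays nearly inactive until a nucleation promoting factor such as N-WASP or WAVE binds it. In mouse oocytes the complex is known for the cortical actin cap that forms over the chromosomes, for holding the spindle under the cortex and for extrusion of the polar body. Fully grown oocytes transcribe little, so their stored mRNAs are translated or degraded during maturation, often with a change in the length of the poly(A) tail.

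The oocytes came from B6D2F1 (C57BL/6 x DBA) females aged 6 to 8 weeks that had been primed with PMSG, and cumulus cells were removed from them with hyaluronidase. GV oocytes (germinal vesicle stage) were taken at 0 h. MII oocytes (second metaphase) had been kept in M16 medium for 12 h without drug and were taken only if they had a polar body, while TubA-10 and TubA-20 oocytes had been kept for as long with tubastatin A, an inhibitor made against the deacetylase HDAC6, at 10 or 20 μM by the sample titles and the methods. The drug was dissolved in DMSO, and whether MII oocytes received the solvent is not given in the sources used here. In the treatment field of the labels, however, TubA-10 carries 20 μM and TubA-20 carries 11 μM, and the title of the MII sample calls it an embryo. Each condition was 1 library made from a pool of 100 oocytes, so no difference below could be set against a replicate spread and none has a p-value. Differences between the treated oocytes and MII also include the choice of MII oocytes by polar body, which cannot be told apart from the drug here.

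Levels are FPKM, fragments divided by the length of the transcript and by the number of mapped fragments in the library. They may be compared between genes only as far as poly(A) selection captured the genes alike. Differences are log2 ratios of FPKM + 1. In pooled oocytes, fewer oocytes that hold a transcript and less of it in each cannot be told apart, and FPKM is relative to the total of its library. Because the RNA was selected by poly(A), the amount of an mRNA and the length of its tail cannot be told apart either. This holds for every difference and ratio below. The depth behind each value was sought from steps between the lowest values. For TubA-20 such a step lay at 0.896 times the mapped fragments of GV, and 85.8% of the ratios within 0.15 log2 units of it were within 0.03. For MII and TubA-10 those shares were 30.2% and 33.8%, against 20% if the ratios were spread evenly, so no depth is given for these libraries. An estimate of this kind concerns fragments counted by the authors' software and need not follow the total of reads sequenced. The 12 oocyte marker genes were above 1 FPKM in every library, with sums from 17306 to 22654 FPKM led by *Dppa3*, but single markers differed. Against GV, TubA-20 had 4 of the 12 past 2-fold downward and 2 upward. Of all genes 11.7% and 7.61% did so, and of genes with at least 5 FPKM in either library 26.8% and 20.2%. *Zp2*, *Zp3* and *Padi6* were lower than in MII by 1.41, 1.21 and 1.14 on the log2 scale. The part of these oocyte markers in the results for TubA-20 was not tested. The 12 cumulus and granulosa cell markers summed to between 8.38 and 16.4 FPKM, led by *Inha* in GV and by *Cyp19a1* elsewhere, and *Foxl2* was listed at 0 throughout. Against GV, 1 of these 12 was past 2-fold downward in TubA-20 and 2 upward, beside 11.7% and 7.61% of all genes. *Inha* was highest in GV like *Arpc3*, at between 0.239 and 0.314 FPKM in the cultured libraries and −2.78 on the log2 scale in TubA-20 against GV. *Cyp19a1* (6.14 FPKM in GV and 10.3 in TubA-20), *Ptx3* (0 and 1.19) and *Tnfaip6* (0 and 1.57) were highest in TubA-20 with no library below GV, like *Arpc1b*. *Has2* and *Ptgs2* shared this at 0.408 FPKM or below. Of the 12, 5 were above GV in TubA-20 and 6 below it, where the median of all genes was 0. Besides *Inha*, the lower ones included *Fshr* (0.417 FPKM in GV and 0 in TubA-20), *Inhba* (0.956 and 0) and *Amhr2* (0.935 and 0.651). The part of these markers in the results was not tested. The 10 blood cell markers summed to between 0.705 and 2.24 FPKM, and 6 to 9 of them were listed at 0.

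Subunits of the same complex differed widely in mRNA level. In GV oocytes *Arpc3* was highest and *Arpc5* lowest, with 61.3 times between them, and the corresponding span was 29.3 times at MII, 30.2 times under TubA-10 and 72.3 times under TubA-20. *Arpc1b* took the first place from *Arpc3* in all 3 cultured libraries. The lowest place was held by *Arpc5* in GV, MII and TubA-10 and by *Arpc1a* in TubA-20. When the paralogues of ARPC1 and of ARPC5 were added up, the scarcest subunit was ARP2 in GV and ARPC4 in the other 3 libraries. Without replicates it cannot be said which neighbours in these orders differ beyond their spread.

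**Figure D1:**
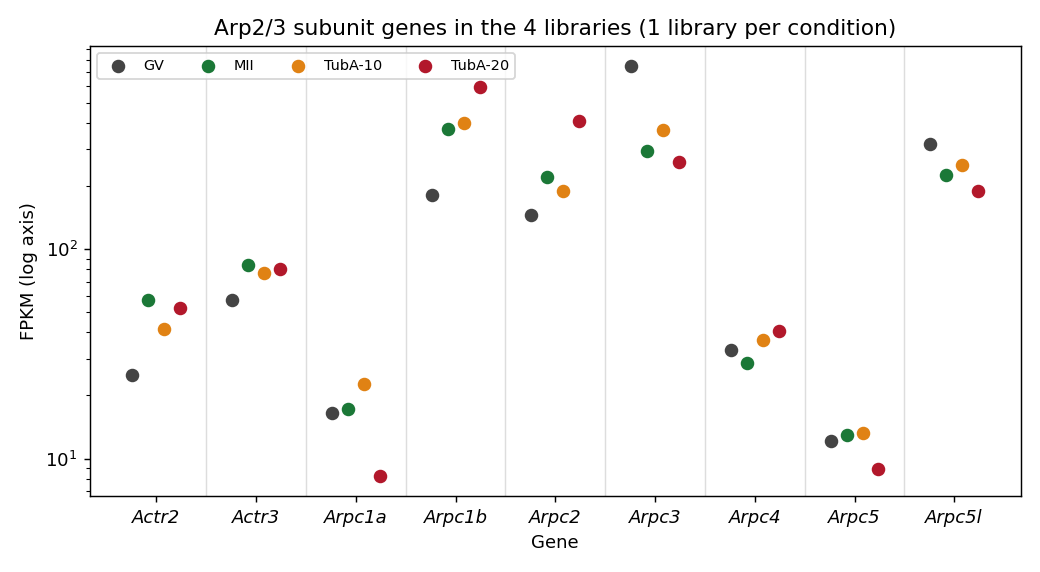
FPKM (log axis) of the 9 Arp2/3 subunit genes, with 1 point for each library and no error bars because there was 1 library per condition. *Arpc1b* and *Arpc2* are highest in TubA-20, at 598 and 409.5 FPKM, and *Arpc3* is highest in GV at 746 FPKM.

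ARP2 and ARP3 are the subunits that take the place of the first actins of the new branch. *Actr2* (GRCm38 chromosome 11, 20062304 to 20112913, minus strand) measured 25.0 FPKM before culture (GV), 57.4 at MII, 41.4 under TubA-10 and 52.3 under TubA-20. All 3 cultured libraries were above GV, and TubA-10 was the lowest of them. The log2 difference from GV was 1.17 at MII, 0.71 under TubA-10 and 1.04 under TubA-20, and with the median gene set to no change that of TubA-20 was 0.82 and no longer passed 2-fold. The difference of MII lay at percentile 96.7 of genes with at least 5 FPKM in GV or MII. Its difference from MII was −0.46 for TubA-10 and −0.13 under TubA-20.

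*Actr2* was the only member whose annotated 3′ end held the letters of a cytoplasmic polyadenylation element in its last 100 bases. The letters sought were TTTTAT or TTTTAAT, read in the sense of the mRNA. Such elements are bound by CPEB, which controls poly(A) tails of stored mRNAs in oocytes. The site is shown because the libraries were selected by poly(A), with the element in capitals, read from GENCODE transcripts at chr11:20062325-20062349 of GRCm38 on the minus strand, in the 3′ UTR of transcript Actr2-201.

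Actr2: tatacttctTTTTAATtaagaaaat

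The element begins 37 bases before the annotated end, and an AATAAA signal begins 24 bases before that end. *Arpc1b* was the only member with no AATAAA or ATTAAA signal near its annotated end, and 0 of its 3 transcripts with a 3′ UTR of at least 100 bases had one. The lack of an element in *Arpc1b* therefore says less than in the other members. Among the 7343 genes with a 3′ UTR of at least 100 bases and at least 5 FPKM in 1 or more libraries, 21.3% held such letters in the same window. Those 1562 genes had a median log2 difference of 0.50 between MII and GV and of 0.72 between TubA-20 and GV, against 0.05 and 0.09 in the 5781 genes without the letters. The members' share, 1 of 9, is not set apart from this background, and the letters do not show that the site is used.

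*Actr3* (chromosome 1, 125392905 to 125435727, minus strand) stood at 56.9 FPKM for GV oocytes, 83.9 at MII, 77.1 under TubA-10 and 80.5 under TubA-20. The pattern was that of *Actr2* with smaller steps, with log2 differences from GV of 0.55 at MII, 0.43 under TubA-10 and 0.49 under TubA-20. Per length, *Actr3* stood 2.28 times above *Actr2* in GV, 1.46 times at MII, 1.86 times under TubA-10 and 1.54 times under TubA-20. Ratios of this kind are taken within a library, so no scaling of the libraries changes them. The related gene *Actr3b*, which encodes a second ARP3 and was not among the 9, stayed between 1.36 and 1.58 FPKM, and *Actr3* was 39.6 to 56.7 times higher. A processed pseudogene, *Gm8822*, is 98.8% identical to *Actr3* over 2348 bases, so the level of *Actr3* is uncertain to the extent that fragments were split between them.

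ARPC1 is the WD40 propeller subunit that touches the activators, and mice make it from a pair of neighbouring genes on chromosome 5. *Arpc1b* (145114215 to 145130705, plus strand) had a level of 181 FPKM at GV, 377 at MII, 399 after TubA-10 and 598 after TubA-20. GV was the lowest library and TubA-20 the highest. The log2 difference from GV was 1.06 at MII, 1.14 under TubA-10 and 1.72 under TubA-20, the last at percentile 99.3 of the 7778 genes with at least 5 FPKM in GV or TubA-20. With the median gene set to no change, MII and TubA-10 were at 0.91 and 0.98 and did not pass 2-fold. Against MII, *Arpc1b* was higher by 0.08 in TubA-10 and by 0.67 in TubA-20.

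*Arpc1a* (145083830 to 145108761, plus strand) was lowest where *Arpc1b* was highest. It measured 16.6 FPKM before culture (GV), 17.2 at MII, 22.7 under TubA-10 and 8.27 under TubA-20, so TubA-10 was the highest library and TubA-20 the lowest, 2.75 times apart. Its log2 difference in TubA-20 was −0.92 from GV, −0.97 from MII and −1.35 from TubA-10. The difference from MII passed 2-fold with smaller pseudocounts and under all 4 other scalings, reaching −1.13. *Arpc1b* made up 91.6% of ARPC1 mRNA in GV, 95.6% at MII, 94.6% under TubA-10 and 98.6% under TubA-20, and the ratio of *Arpc1b* to *Arpc1a* went from 10.9 in GV to 21.9 at MII, 17.6 under TubA-10 and 72.3 under TubA-20. *Arpc1a* overlaps *Kpna7* on the opposite strand by 201 bases, and *Kpna7* was highest in TubA-10 (239.6 FPKM) and lowest in TubA-20 (179 FPKM), which was not tested as a part of the result. The coding sequences of the pair are 73.9% identical over 1101 aligned bases. ARPC1B is known as the form that prevails in blood cells. The leukocyte genes *Ptprc* and *Cd74* were listed at 0 in GV, MII and TubA-20, and at 0.00893 and 0.0606 FPKM in TubA-10. Beside *Arpc1b*, the blood cell gene *Laptm5* stood at 0.388 FPKM for GV oocytes, 1.44 at MII, 1.21 under TubA-10 and 2.24 under TubA-20, and it is given because it led its list and had GV lowest and TubA-20 highest like *Arpc1b*. Other genes of that list did not share this order, with *Coro1a* at 0.239 FPKM in GV, lower in TubA-10 and 0 in MII and TubA-20, *Lyz2* at 0.0779 FPKM in GV and 0 elsewhere, and *Alas2* at 0.0347 FPKM in MII and 0 elsewhere. *Arpc1b* overlaps *Pdap1* on the opposite strand by 1937 bases, and *Pdap1* had a level of 24.9 FPKM at GV, 36.1 at MII, 30.7 after TubA-10 and 50.3 after TubA-20. The libraries and the counting used strand, and the part of *Pdap1* and *Laptm5* in the result was not tested. Processed pseudogenes of *Arpc1b* include *Gm5637*, 97.5% identical over 1119 bases. In all, 10 such copies with at least 90% identity were annotated for 6 of the 9 members, none of them for *Arpc3*, *Arpc4* or *Arpc5l*.

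ARPC2 and ARPC4 form the core dimer that grips the mother filament. *Arpc2* (chromosome 1, 74236084 to 74268209, plus strand) measured 145 FPKM before culture (GV), 222 at MII, 189 under TubA-10 and 409.5 under TubA-20. TubA-20 stood apart from the other 3 libraries, which lay within 1.53 times of each other. The log2 difference of TubA-20 was 1.49 from GV, 0.88 from MII and 1.11 from TubA-10, at percentiles 97.5, 99.0 and 99.4 of genes with at least 5 FPKM in the libraries compared. With equal *Gapdh* the difference from TubA-10 was 0.92. MII and TubA-10 were above GV by 0.61 and 0.38.

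*Arpc4* (chromosome 6, 113378115 to 113390448, plus strand) stood at 33.2 FPKM for GV oocytes, 28.6 at MII, 36.9 under TubA-10 and 40.8 under TubA-20. It varied least of the 9 genes, by 1.43 times between MII and TubA-20. Its log2 differences from GV were −0.21 in MII, which turned to 0.02 with equal *Gapdh*, 0.15 in TubA-10, which turned to −0.01 with the median gene set to no change, and 0.29 in TubA-20. The ratio of *Arpc2* to *Arpc4* mRNA was 4.38 at GV, 7.75 at MII, 5.11 under TubA-10 and 10.0 under TubA-20. The end of *Arpc4* overlaps *Ttll3* on the same strand, which was at 0.114 FPKM or below in every library.

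ARPC3 contacts ARP3, and its gene was the only member more than 2-fold below GV, although *Arpc1a* joined it in TubA-20 with a pseudocount of 0.01 or with the median gene set to no change. *Arpc3* (chromosome 5, 122391878 to 122414184, plus strand) had a level of 746 FPKM at GV, 294 at MII, 371 after TubA-10 and 261 after TubA-20. GV was above all cultured libraries, and TubA-10 was the nearest to it. The log2 difference from GV was −1.34 at MII, −1.01 under TubA-10 and −1.51 under TubA-20. That of TubA-10 was short of 2-fold when FPKM sums, upper quartiles or *Gapdh* were made equal, at −0.74 with *Gapdh*. Against MII, *Arpc3* differed by 0.33 in TubA-10 and by −0.17 in TubA-20. The difference of MII lies at percentile 14.1 of the 7685 genes with at least 5 FPKM in GV or MII, so lower values were common. The ratio of *Arpc3* to *Arpc1b* was 4.13 at GV, 0.781 at MII, 0.931 under TubA-10 and 0.436 under TubA-20.

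ARPC5 ties ARP2 to the core and is also made from a pair of genes. *Arpc5l* (chromosome 2, 39005348 to 39015877, plus strand) measured 319 FPKM before culture (GV), 225 at MII, 252 under TubA-10 and 190 under TubA-20. The order of the libraries was that of *Arpc3*, with log2 differences from GV of −0.50 at MII, −0.34 under TubA-10 and −0.75 under TubA-20. It overlaps the ribosomal protein gene *Rpl35* on the opposite strand by 277 bases, and *Rpl35* stood at 977 FPKM for GV oocytes, 212 at MII, 263 under TubA-10 and 98.2 under TubA-20, a difference whose part in the result was not tested.

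*Arpc5* (chromosome 1, 152766542 to 152775597, plus strand) had a level of 12.2 FPKM at GV, 12.9 at MII, 13.2 after TubA-10 and 8.94 after TubA-20. TubA-20 was lower than the other 3 libraries, by 0.41 against GV, 0.48 against MII and 0.52 against TubA-10 on the log2 scale. The small differences of MII and TubA-10 from GV, 0.08 and 0.11, turned negative with the median gene set to no change. *Arpc5l* supplied 94.6% to 96.3% of ARPC5 mRNA in the 4 libraries, so this pair kept its proportions more closely than the ARPC1 pair. The ratio of *Arpc5l* to *Arpc5* was 26.2 at GV, 17.5 at MII, 19.1 under TubA-10 and 21.2 under TubA-20, and the coding sequences are 71.3% identical.

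The comparison of MII with GV asks how the subunit mRNAs differ after maturation without drug. *Actr2* and *Arpc1b* were more than 2-fold higher, *Arpc3* was more than 2-fold lower and the other 6 members lay within 2-fold. That is 3 of 9, where 11.4% of all genes and 29.0% of the 7685 genes with at least 5 FPKM passed 2-fold in either direction, the latter made up of 8.26% upward and 20.8% downward. Genes with at least 5 FPKM in either library compared are called expressed below. The median of the 9 was 0.08, with a range from −1.34 to 1.17, and the median of those 7685 genes was 0.11. The sign of the members' median turned to −0.06 with the median gene set to no change.

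In TubA-20 against GV, 4 of 9 members passed 2-fold, *Arpc1b*, *Arpc2* and *Actr2* upward and *Arpc3* downward. Of all genes 19.3% did so, and of genes with at least 5 FPKM 47.0% (20.2% upward and 26.8% downward), so the share is near that of expressed genes. The median of the members was 0.29 beside 0.23 for expressed genes, and their values spread over 3.23 log2 units. In TubA-10 against GV, 2 of 9 passed, *Arpc1b* upward and *Arpc3* downward, beside 6.34% of all genes and 16.0% of expressed ones (1.77% upward and 14.2% downward), and the median was 0.38 beside 0.15. These comparisons and that of MII share the GV library.

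Set against MII, which had the same time in culture, none of the 9 members passed 2-fold in TubA-10 (0.642% of all genes did, and 1.49% of expressed ones) and none did in TubA-20 (2.77% and 6.63%). *Arpc1a* was nearest to the threshold in TubA-20 and passed it under the settings given above. In that library 3 of the 12 oocyte markers, named above, were more than 2-fold below MII. The members spread from −0.46 to 0.38 in TubA-10 and from −0.97 to 0.88 in TubA-20. In TubA-20, *Arpc2*, *Arpc1b* and *Arpc4* were higher than in MII, and *Arpc1a*, *Arpc5*, *Arpc5l*, *Arpc3*, *Actr2* and *Actr3* were lower, the last 2 by 0.13 and 0.06. Between the doses, TubA-20 against TubA-10, *Arpc2* was more than 2-fold higher and *Arpc1a* more than 2-fold lower, 2 of 9 beside 6.18% of all genes and 15.6% of expressed ones (1.45% upward and 14.1% downward).

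**Figure D2:**
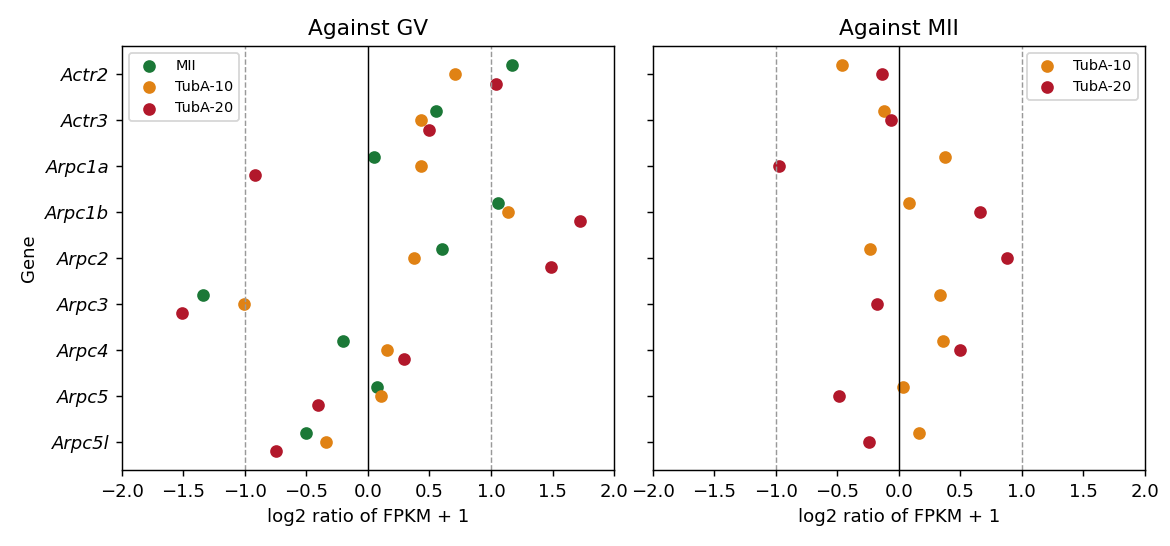
log2 ratio of FPKM + 1 for each subunit gene against GV (left) and against MII (right), with 1 library per point and dashed lines at 2-fold. *Arpc1b* and *Arpc2* lie furthest to the right in TubA-20 against GV (1.72 and 1.49) and *Arpc3* furthest to the left (−1.51), and no point passes 2-fold against MII, although *Arpc1a* in TubA-20 (−0.97) does so with smaller pseudocounts and other scalings.

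**Figure D3:**
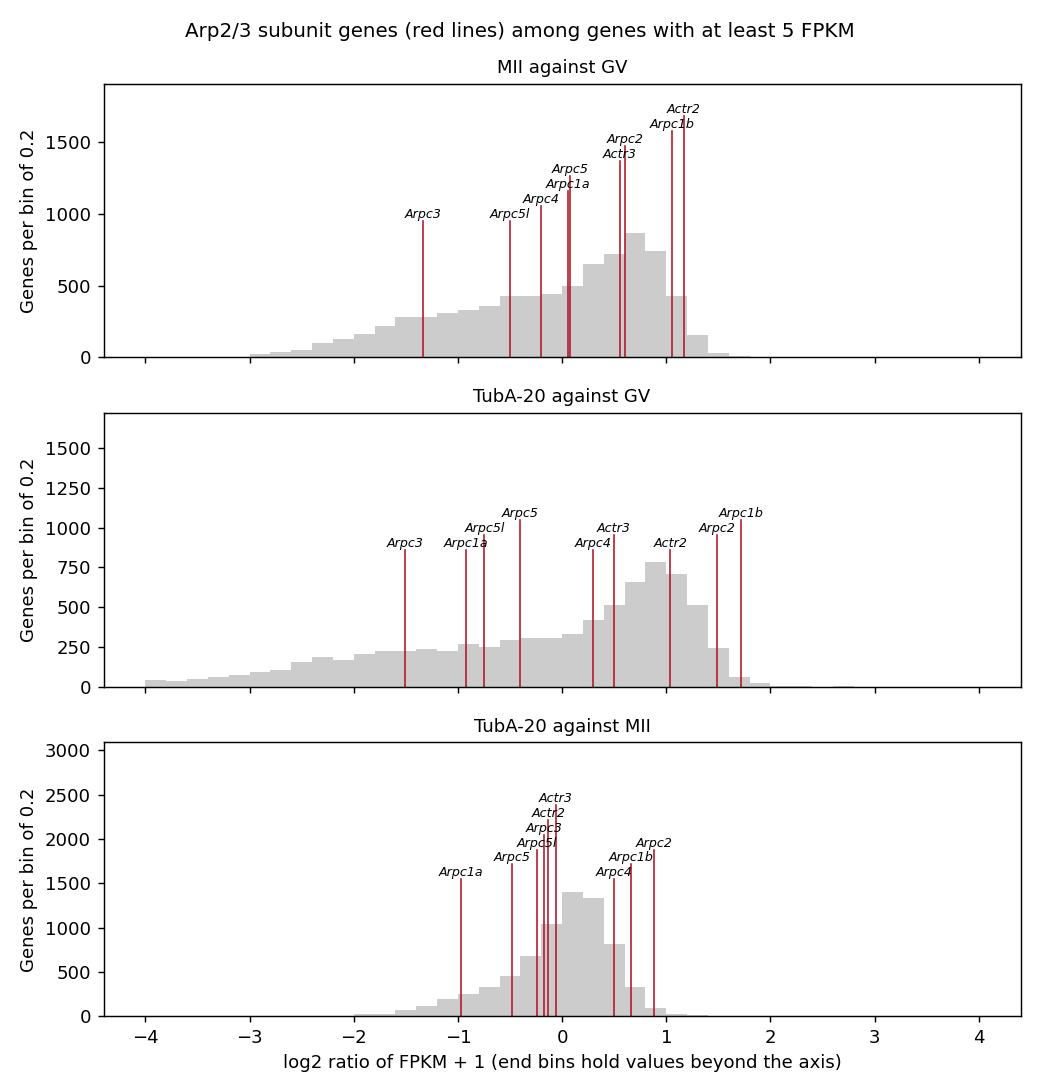
Number of genes in bins of 0.2 of the log2 ratio of FPKM + 1 (grey), for genes with at least 5 FPKM in either library, with the 9 members as red lines whose height has no meaning. The lowest members lie within the left side of the grey bars (*Arpc3* at percentiles 14.1 and 19.3 against GV, *Arpc1a* at 6.66 in TubA-20 against MII), and *Arpc2* at 0.88 is near the upper edge in TubA-20 against MII.

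The make-up of the summed subunit mRNA differed between libraries. The 9 genes added up to 1535 FPKM in GV, 1318 at MII, 1402 under TubA-10 and 1650 under TubA-20. *Arpc3* was 48.6% of that sum in GV, 22.3% at MII, 26.5% under TubA-10 and 15.8% under TubA-20. *Arpc1b* was 11.8%, 28.6%, 28.5% and 36.3% in the same order. *Arpc2* was 9.47% at GV, 16.8% at MII, 13.5% under TubA-10 and 24.8% under TubA-20. *Actr2* and *Actr3* together stayed a minor part, at most 4.36% and 6.37%, both in MII. These are levels of poly(A)-selected mRNA, and the amounts of subunit protein were not measured.

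**Figure D4:**
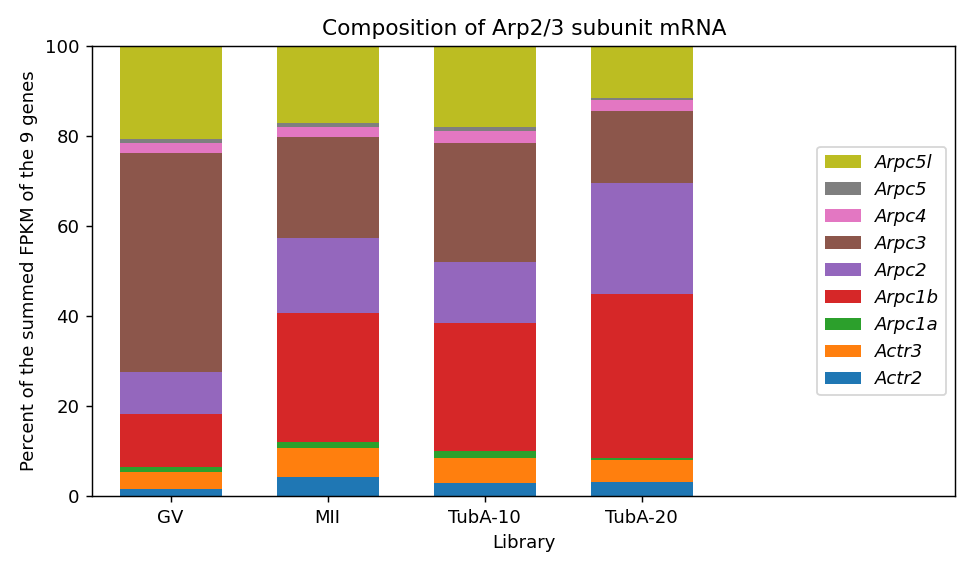
Share of each gene in the summed FPKM of the 9 Arp2/3 subunit genes, in percent, with 1 stacked bar for each library. *Arpc3* takes 48.6% of the bar in GV and 15.8% in TubA-20, and *Arpc1b* 11.8% and 36.3%.

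The profile of each member over the 4 libraries was compared by the distance between centred log2 values, a description over 4 points. *Actr2* and *Actr3* were nearest to each other (0.486), as were *Arpc1b* and *Arpc2* (0.562) and *Arpc5* and *Arpc5l* (0.429), while *Arpc3* and *Arpc1b* were furthest apart (2.38). Being nearest among members did not make them nearest among all genes, since between 4.78% (*Arpc1a*) and 36.4% (*Actr3*) of the 6007 other genes that reached 5 FPKM throughout were closer still to a member than its nearest fellow. The genes most like *Actr2* were *Tfdp1* (0.0548), *Lcor* (0.0600) and *Cenpf* (0.0605). *Tfdp1* measured 27.7 FPKM before culture (GV), 65.5 at MII, 48.0 under TubA-10 and 60.7 under TubA-20. *Mettl6*, *Dync1i2* and *Txndc16* lay closest to the mean profile of the 9 members, at 0.0455, 0.0464 and 0.0496.

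The activators, inhibitors and partners of the complex were counted by list, low genes included. From GV to MII, 3.05% of all genes were more than 2-fold higher and 8.34% lower, beside 8.26% and 20.8% of expressed genes, whose median was 0.11. From GV to TubA-20 the shares were 7.61% and 11.7% of all genes, and 20.2% and 26.8% of expressed genes, whose median was 0.23. With a pseudocount of 0.1, 21.0% of all genes passed 2-fold in either direction in MII and 31.3% in TubA-20, beside 11.4% and 19.3% as reported, and the counts at that pseudocount given below are to be read against these. No list was tested against any of these shares. In TubA-20 against MII no gene of the 7 lists passed 2-fold, where 2.77% of all genes did. With a pseudocount of 0.1, 10.2% of all genes passed, and with them 1 lower gene in the N-WASP group, 1 among the inhibitors and 2 in the list of other actin-related proteins. Of the 11 genes listed for the WAVE complex, which activates Arp2/3 downstream of RAC1, 2 were more than 2-fold higher in MII than in GV and 3 in TubA-20, with 0 and 1 lower. Of these 11 genes 8 reached 5 FPKM, and the medians were 0.39 and 0.50. *Wasf2* stood at 85.5 FPKM for GV oocytes, 206 at MII, 146 under TubA-10 and 222 under TubA-20, and its log2 difference from GV was 1.26 in MII and 1.37 in TubA-20. *Wasf3* and *Nckap1* differed by 1.20 and 1.34 in TubA-20. *Nckap1l*, the form known from blood cells, was the lower gene, from 4.36 FPKM in GV to 1.04 in TubA-20, and was named after its values were seen. With the median gene set to no change, *Wasf3* was just short of 2-fold in both, so that 1 WAVE gene rather than 2 passed upward in MII and 2 rather than 3 in TubA-20. With equal *Gapdh*, *Nckap1* passed upward in MII as well, at 1.05. That scaling also took 2 WAVE genes rather than 0 past 2-fold upward in TubA-10 against GV, where 7.34% of all genes passed in either direction. With a pseudocount of 0.1, 1 WAVE gene rather than 0 was lower in MII (21.0% of all genes passed there).

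In the N-WASP group of 11 genes, 2 were more than 2-fold higher and 1 lower in both MII and TubA-20 against GV, where 20.2% and 26.8% of expressed genes passed in TubA-20. Of the 11 genes 5 reached 5 FPKM, the median was 0 in both, and with a pseudocount of 0.1 there were 2 lower genes in TubA-20 (31.3% of all genes passed there). *Wasl*, which encodes N-WASP, had a level of 71.0 FPKM at GV, 159 at MII, 125 after TubA-10 and 175 after TubA-20. *Fnbp1l*, whose product TOCA-1 links CDC42 to N-WASP, was at 57.0 FPKM in GV and 163 in MII and differed from GV by 1.53 in TubA-20, while *Trip10* differed by −1.02 in MII and −1.23 in TubA-20. The value of *Trip10* in MII was short of 2-fold when FPKM sums, upper quartiles or *Gapdh* were made equal. *Cdc42* itself was at 87.8 FPKM in GV and between 105 and 126 in the cultured libraries, within 2-fold throughout.

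Of the 8 genes of the WASH complex and its capping protein partner, 1 was more than 2-fold higher and 2 lower in TubA-20 than in GV, where 47.0% of expressed genes passed in either direction. Of the 8 genes 6 reached 5 FPKM, and the median was −0.11. *Capza2* was higher by 1.26 and *Capzb*, its partner in the capping protein dimer, was at −1.18, with 63.3 FPKM in GV, 48.3 at MII, 61.8 under TubA-10 and 27.4 under TubA-20. *Capza1*, the other alpha subunit, was highest in TubA-10, with 7.67 FPKM at GV, 9.13 at MII, 19.8 under TubA-10 and 6.45 under TubA-20, and was named after its values were seen. It differed from MII by 1.04 in TubA-10, where 0.642% of all genes and 1.49% of expressed ones passed 2-fold. No other gene of the 7 lists passed between a treated library and MII at the settings reported. With equal FPKM sums or upper quartiles no WASH gene passed in TubA-10 against MII. *Washc1* was the other lower gene, from 3.92 FPKM to 0.475, named after its values were seen. Of 7 further activators, 3 of which reached 5 FPKM, *Whamm* and *Rac1* passed 2-fold upward from GV to TubA-20, at 1.34 and 1.04, beside 20.2% of expressed genes, and *Rac1* was at 0.82 with the median gene set to no change. *Cttn*, which encodes the branch stabiliser cortactin and a substrate of HDAC6, was low, at 2.10 FPKM in GV, 3.20 at MII, 2.62 under TubA-10 and 3.56 under TubA-20.

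Among 10 inhibitors and debranching factors, none was more than 2-fold higher than GV in MII or TubA-20, and 1 and 3 were lower, beside 20.8% and 26.8% of expressed genes. Of the 10 genes 5 reached 5 FPKM, the medians were −0.26 and −0.24, and with a pseudocount of 0.1 there were 2 and 5 lower genes (21.0% and 31.3% of all genes passed). With the median gene set to no change, 2 rather than 1 were lower in MII, as *Coro1b* then reached −1.03. *Pick1*, which binds and inhibits the complex, measured 5.20 FPKM before culture (GV), 1.49 at MII, 1.56 under TubA-10 and 0.574 under TubA-20. *Coro1b*, a coronin that promotes loss of branches, stood at 21.3 FPKM for GV oocytes, 11.0 at MII, 20.8 under TubA-10 and 6.73 under TubA-20, so TubA-10 was close to GV and the other 2 libraries were lower. *Coro1c* differed from GV by −1.03 in TubA-20, or −0.98 with equal *Gapdh*. Each of these 3 genes was within 2-fold between TubA-20 and MII, at −0.66, −0.63 and −0.74, although *Pick1* passed with pseudocounts of 0.1 and 0.01.

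Of 4 actin and profilin genes, 1 was more than 2-fold higher and 2 were lower in TubA-20 than at GV, where 20.2% and 26.8% of expressed genes passed, and the median of the 4 was −0.93. *Actb*, which has processed pseudogenes that may share its fragments, had a level of 39.1 FPKM at GV, 81.1 at MII, 67.5 after TubA-10 and 129 after TubA-20, with a log2 difference from GV of 1.70 in TubA-20. *Actg1* was at 24.2, 18.7, 30.0 and 14.8 FPKM in that order, within 2-fold of GV throughout, and was named after its values were seen. *Pfn1*, which encodes profilin, measured 478 FPKM before culture (GV), 253 at MII, 457 under TubA-10 and 210.2 under TubA-20, and *Pfn1* and *Pfn2* differed from GV by −1.18 and −1.42 in TubA-20. In MII both were within 2-fold, at −0.91 and −0.95, and both passed it with the median gene set to no change.

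**Figure D5:**
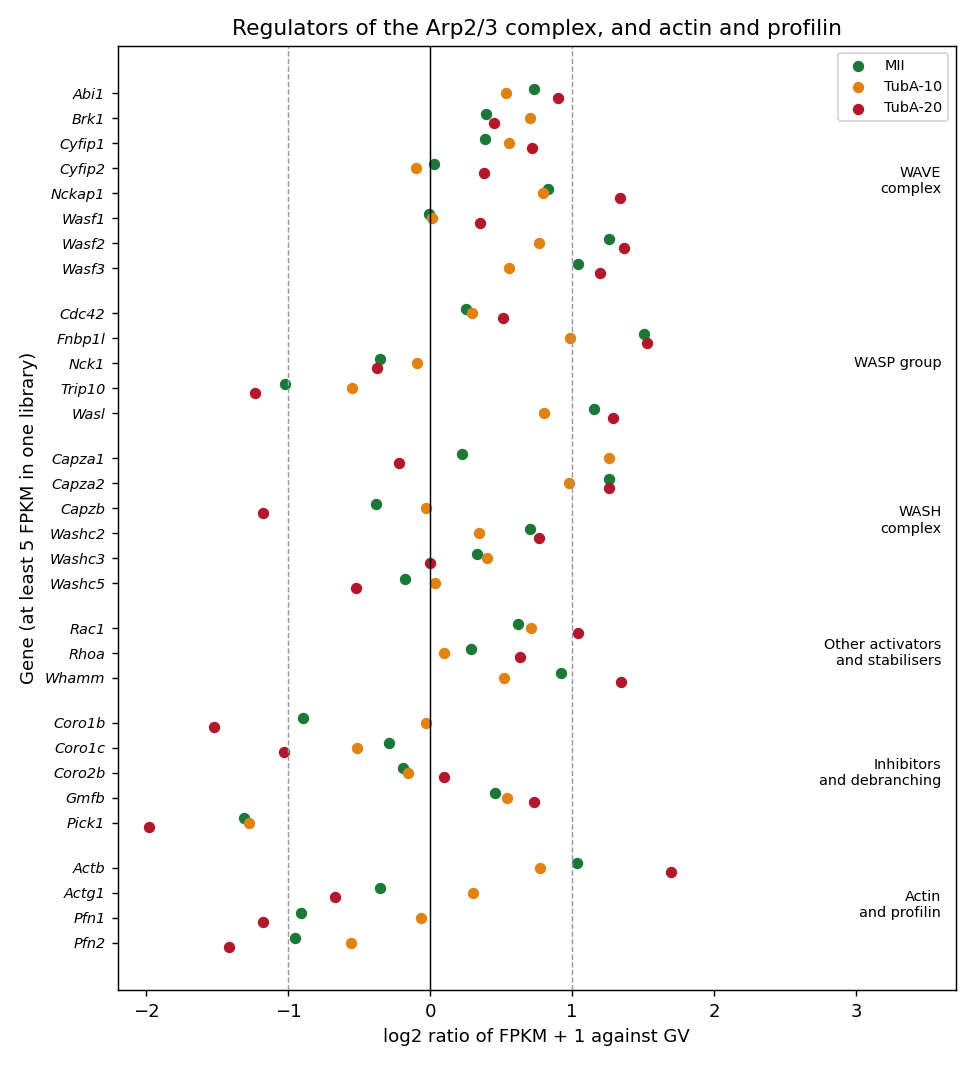
log2 ratio of FPKM + 1 against GV for listed regulators of the Arp2/3 complex, actins and profilins with at least 5 FPKM in 1 or more libraries, with 1 library per point and dashed lines at 2-fold. *Wasf2* and *Wasl* lie right of 2-fold in MII and TubA-20, while *Pick1* lies left of it in all 3 cultured libraries.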

How the data were processed

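Polyadenylated RNA was sequenced in 1 library per condition (GV, MII, TubA-10 and TubA-20). The authors deposited FPKM values, made with cufflinks in a strand-specific mode on mm10 from poly(A)-enriched RNA (isolated with TRIzol by the labels and with a PicoPure kit by the study's methods), and the submitters' processing notes name STAR 2.5.0 and Cuffdiff 2.2.1. Of 21959 entries, 21794 were matched to a symbol by Ensembl identifier, and entries sharing a symbol were added up. Log2 ratios of FPKM + 1 were computed for 6 comparisons, and a gene was called past 2-fold with no filter on low values. No test was possible with 1 library per condition. The members and all gene lists were chosen with earlier results of these data known. Genes could be named if they were members, or if they were in a list, reached 5 FPKM and passed 2-fold in MII or TubA-20 against GV or in TubA-20 against MII, with *Cttn*, *Cdc42*, *Actr3b* and the 3 nearest profiles added. Genes that overlap a member, pseudogene copies and marker genes are named beside the results they touch, and other names chosen after their values were seen are given as such. Positions, 3′ UTRs and transcripts are from GENCODE M21 (GRCm38), using the principal transcript of each gene. Near-identical copies had at least 90% identity over 200 bases by blastn 2.17.0, and paralogues were aligned with Biopython 1.88. Other pseudocounts, minimum values, thresholds, 4 scalings and the highest entry per symbol were tried. The scripts were tested on simulated data. Python 3.11.15, numpy 2.4.6, pandas 2.3.3 and matplotlib 3.10.9 were used.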

Additional observations from a re-analysis of the deposited data

How the results depend on the processing

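Of 66 counts of members past 2-fold under the alternatives, 50 were within 1.5 times of the value reported and 16 were not. The 50 include counts that could not move, since every member was at 8.27 FPKM or above and so passed the minimum values. The highest entry per symbol repeated each reported count as well, so the 50 overstate how stable the counts are. In TubA-20 against MII, 1 member rather than 0 passed with pseudocounts of 0.1 and 0.01, with the median gene set to no change, and with equal FPKM sums, equal upper quartiles or equal *Gapdh*, and this was *Arpc1a* each time. Of all genes 10.2% and 18.8% passed with those pseudocounts and 3.01% to 3.90% with those scalings, beside 2.77% as reported. With a 1.5-fold threshold 3 members and 10.5% of all genes passed. In TubA-10 against GV, 1 member rather than 2 passed under each of the 4 scalings, which was *Arpc3* with the median gene set to no change and *Arpc1b* with the others, beside 6.06% to 7.34% of all genes. In TubA-20 against TubA-10, 1 passed with equal *Gapdh*, beside 7.92%. A 3-fold threshold left 0 members in MII against GV, 0 in TubA-10 against GV, 1 in TubA-20 against GV and 0 in TubA-20 against TubA-10, where 3.68%, 1.92%, 7.36% and 1.62% of all genes passed.

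Of 486 log2 differences of single members under other pseudocounts, minimum values, scalings and entries, 11 turned their sign, all of them under the scalings. Another pseudocount cannot turn a sign, and every member exceeded the minimum values. Of those 11, 0 belonged to a value past 2-fold. The scaling factors lay between 0.855 and 1.20, too close to 1 to turn such a value, so this 0 was fixed in advance. Equal *Gapdh* moved the median gene of MII and TubA-10 against GV from 0.13 and 0.14 to 0.31 and 0.36, and equal sums moved that of MII against GV to 0.24 and that of TubA-20 against MII from 0.02 to −0.10. No paired analysis was possible because each condition had 1 library, and no library could be left out. Read counts were not used here, so the counting error of each FPKM is unknown. *Arpc5* and *Arpc1a*, the lowest members, rest on the fewest fragments per length.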

Other observations

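A list of 8 other actin-related proteins, which share the actin fold, held *Actr3b*, the second ARP3 described above, and 7 genes whose products work outside the Arp2/3 complex. In TubA-20, 6 of the 8 lay below their GV level, 2 of them by more than 2-fold. The other 2, among them *Actr3b* at 0.06, lay above it, and 0 were more than 2-fold higher. In the same comparison 11.7% of all genes and 26.8% of expressed genes were more than 2-fold lower. The median of all 8 was −0.36, beside 0.23 for expressed genes and 0 for all genes. The share of all genes below GV by any amount is not given here, so the 6 of 8 cannot be judged against it. The 2 genes past 2-fold were *Actr5*, a subunit of the INO80 chromatin remodeller, with 4.42 FPKM at GV and 1.53 at MII, 1.37 under TubA-10 and 0.450 under TubA-20, and *Actr1b*, a minor form of the dynactin filament subunit, from 1.84 FPKM to 0.502, 0.814 and 0.193. Both were below 5 FPKM and were named after their values were seen. The main dynactin form, *Actr1a*, stood at 27.3 FPKM for GV oocytes, 22.1 at MII, 27.8 under TubA-10 and 24.4 under TubA-20, and *Actr8* of INO80 was at 57.4, 42.3, 50.0 and 35.0. Neither passed 2-fold from GV, and both were named after their values were seen. Between TubA-20 and MII, *Actr5* differed by −0.80 and *Actr1b* by −0.33, and both passed 2-fold with pseudocounts of 0.1 and 0.01, reaching −1.74 and −1.34. *Actr5* at MII was just short of 2-fold below GV with equal *Gapdh*, at −0.96.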
